A study of Mus musculus with 8 samples.

Results

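The 2 arms of the microRNA miR-33, mmu-miR-33-5p and mmu-miR-33-3p, were followed among the RISC-bound small RNAs (R-sRNAs) of mouse brain. Their reads were chosen by the miRNA name that the deposited table gives each sequence, and no level enters that rule. The pair was proposed with earlier results of these data known, so no test below is independent evidence. The names covered 31 sequences of mmu-miR-33-5p and 12 of mmu-miR-33-3p, that is 43 of 47204 sequences and 2 of 895 miRNA names. Both arms passed the filter of a mean of at least 10 CPM (counts scaled to 1000000 reads a library) that left 463 miRNAs for testing.

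The mice were female, on a mixed C57BL/6J and SJL background. Their age is given as 6 months where this comparison is described and as 6 or 8 months in the reporting summary, and the labels give none. All of them carried the 5XFAD transgenes, which are driven by the neuronal Thy1 promoter and cause amyloid deposition. The 4 het mice (5XFADtg Rubicon het) kept an intact copy of Rubicon, a gene that restrains autophagy, and the 4 ko mice (5XFADtg Rubicon ko) had none. Argonaute proteins, which hold the guide strand of the RISC, were captured from cortex and hippocampus with a GW182 peptide, and their small RNAs were sequenced, with 1 library a mouse. Mice without the transgenes were not analysed here.

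The gene of miR-33 lies in an intron of Srebf2, which encodes the transcription factor that switches on cholesterol synthesis and uptake. The miR-33-5p arm is known to repress the cholesterol exporter Abca1 and genes of fatty acid oxidation and autophagy, so that host and guide act on sterol balance together. A hairpin is cut into a 5p and a 3p strand, Argonaute usually keeps more of one strand than of the other, and bases 2 to 7 of the kept strand (its 6mer seed) decide what mRNAs it binds. Small RNAs with certain seeds kill cells by Death Induced by Survival gene Elimination (DISE), and the seed viability score used here is the viability of mouse cell lines after transfection of an siRNA with that seed, where a low score marks a toxic seed.

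The hairpin is shown first, because every read described here was compared with it. In RefSeq (GRCm38.p6) it lies on the plus strand at chr15:82198122-82198190, with the 5p arm at chr15:82198127-82198147 and the 3p arm at chr15:82198167-82198188. In the GENCODE M21 annotation of GRCm38 the gene Srebf2 runs from chr15:82147181-82205379 on the same strand, and the hairpin falls in the intron chr15:82197787-82199634, which is intron 16 of a transcript with 19 exons. Capitals mark both arms in the hairpin and the seed region, bases 2 to 8, in each arm.
mir-33 hairpin: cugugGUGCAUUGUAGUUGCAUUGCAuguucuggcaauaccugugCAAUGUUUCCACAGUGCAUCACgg
mmu-miR-33-5p: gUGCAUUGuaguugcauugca
mmu-miR-33-3p: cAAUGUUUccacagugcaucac

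The reads that made up most of each arm are shown next, because the most abundant read of neither arm equals the annotated strand. Capitals here mark a base that is not in the hairpin.
mmu-miR-33-5p read of 20 nt: gtgcattgtagttgcattgc
mmu-miR-33-5p read of 22 nt: gtgcattgtagttgcattgcaA
mmu-miR-33-5p read of 19 nt: gtgcattgtagttgcattg
mmu-miR-33-5p read of 21 nt: gtgcattgtagttgcattgca
mmu-miR-33-3p read of 21 nt: caatgtttccacagtgcatca
mmu-miR-33-3p read of 22 nt: caatgtttccacagtgcatcaT

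Library depth, recovered from the CPM values, ranged from 509839 to 19878054 reads, and the only 2 libraries over 5000000 reads were ko replicates 1 and 2. A level of 3 reads, under which a value is read as close to no signal, was 0.151 CPM in the deepest library and 5.79 CPM in the shallowest. The tissue matched its label, since 5 of 5 neuronal marker miRNAs were in the table and summed to between 178727 and 219720 CPM in het and between 182484 and 279811 CPM in ko. Marker miRNAs of epithelium (6 of 6 in the table) summed to between 1797 and 7216 CPM in het and between 197 and 1762 CPM in ko, without overlap. Those of erythroid cells (2 of 3 in the table) summed to between 1724 and 3126 CPM in het and between 701 and 2220 CPM in ko. In bulk brain, fewer cells of a type and less RNA per cell cannot be told apart.

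The guide arm miR-33-5p was lower in most ko libraries than in het libraries, but the difference did not pass the test over all miRNAs. Its level in the het libraries was 399.6, 1160.3, 998 and 929 CPM in replicates 1 to 4, from 207, 1687, 2571 and 2474 reads. In the ko libraries it was 73.8, 343, 122 and 552 CPM, from 580, 6823, 285 and 563 reads. The groups overlapped at a single point, as ko replicate 4 lay above het replicate 1. The 95% Wilson interval of the lowest ko value was 68.0 to 80.1 CPM and that of the lowest het value 348.8 to 457.9 CPM, both far narrower than the differences among mice of 1 genotype. Reads carry no molecular identifiers, so such intervals cover counting error only.

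The mean of miR-33-5p was 872 ± 329 CPM (SD, n = 4) in het and 273 ± 220 CPM (SD, n = 4) in ko, a ratio of 3.20. On the log2(CPM + 1) scale the difference, ko minus het, was -1.99 ± 0.55 (SE), with a 95% interval from -3.18 to -0.79 and an adjusted p of 0.167 in limma over 463 miRNAs. Of those miRNAs 6 passed an adjusted p of 0.05, which is 1.30% of those tested, and miR-33-5p stood ninth in the order of p. At an unadjusted p under 0.05 (its own was 0.00324), 6.91% of all miRNAs were lower in ko. The median change of all miRNAs was -0.09, and centring each library on its median moved that median by 0.22. Relative to the median of all miRNAs, the difference of miR-33-5p was -1.90 on both of these scales, and -1.58 with edgeR's and with DESeq2's scaling of the recovered reads.

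Leaving out 1 mouse changed the call, since without ko replicate 4 the difference was -2.46 with an adjusted p of 0.0310 in limma. Leaving out any other single library gave adjusted p-values of 0.0638 to 0.424 in limma. Without the 2 deepest libraries, both ko, the difference was -1.63 with an adjusted p of 0.283. The epithelial and erythroid marker sums given above moved with genotype in the same direction as miR-33-5p. So did the sum of the oligodendrocyte markers (3 of 3 in the table), which was between 9473 and 15455 CPM in het and between 6148 and 9935 CPM in ko. Sums of endothelium markers overlapped widely (6038 to 11056 CPM in het, 6112 to 11931 CPM in ko). So did those of microglia and blood leukocytes (2558 to 3991 CPM in het, 2430 to 4528 CPM in ko). The sums for choroid plexus, liver and muscle also overlapped. The part of any of these cell types in the difference of miR-33-5p was not tested.

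The means of the partner arm miR-33-3p were close in both genotypes. Its level was 30.9, 29.6, 48.9 and 68.7 CPM in het replicates 1 to 4 and 34.4, 57.9, 23.2 and 76.4 CPM in ko replicates 1 to 4. The ranges overlapped almost completely, and the highest and the lowest library were both ko. It rested on few reads, from 16 in het replicate 1 to 1153 in ko replicate 2. The means were 44.5 ± 18.4 CPM (SD, n = 4) in het and 48.0 ± 23.9 CPM (SD, n = 4) in ko. The log2 difference was 0.05 ± 0.43 (SE), with a 95% interval from -0.89 to 0.99 and an adjusted p of 0.995 in limma. Changes in either direction within that interval remain possible, and the interval is not a limit of detection.

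**Figure D1:**
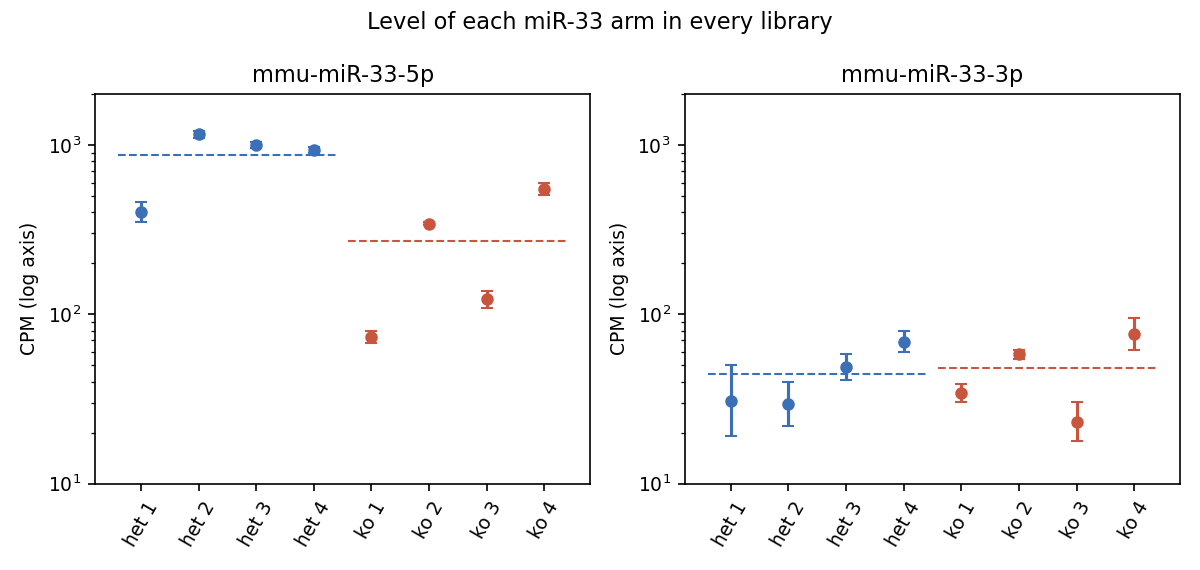
Level of mmu-miR-33-5p (left) and mmu-miR-33-3p (right) in CPM on a log axis, 1 point a library, with 95% Wilson intervals and dashed lines at the genotype means (het blue, ko red). The 5p arm lies between 399.6 and 1160.3 CPM in het and between 73.8 and 552 CPM in ko, while the 3p arm overlaps between genotypes.

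The share of 1 strand in both arms of a library does not depend on how that library was scaled. The 3p strand made up 7.18%, 2.49%, 4.67% and 6.89% of both arms in het replicates 1 to 4 and 31.8%, 14.5%, 15.9% and 12.2% in ko replicates 1 to 4. Every ko library lay above every het library. The Wilson interval of the highest het library was 4.46% to 11.3% and that of the lowest ko library 9.86% to 14.9%. These 2 intervals overlapped, and whether the 2 libraries differ beyond counting error was not tested. The means were 5.31 ± 2.19% (SD, n = 4) in het and 18.6 ± 8.93% (SD, n = 4) in ko. The exact two-sided permutation test gave p = 0.0286, the smallest that 70 splits allow, and 0.0857 after adjustment over 3 measures.

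To place this among other miRNAs, the log2 ratio of 3p to 5p was fitted in the same way for the 138 hairpins with both arms at a mean of at least 10 CPM, a fit added after seeing the data. For miR-33 the log2 ratio was -4.24 on average in het and -2.20 in ko, a difference of 2.04 ± 0.47 (SE) with a 95% interval from 1.03 to 3.05. As a description, this was the largest difference of the 138 and had the smallest p (unadjusted 0.000728), beside a median of 0.07 over all hairpins. Its adjusted p in limma was 0.10, and no hairpin passed 0.05 (0.00% called), while 8 had an unadjusted p under 0.05. Hairpins with every ko library above every het library made up 1.45%, miR-33 and 1 other. Without ko replicate 4 the adjusted p in limma was 0.0271, while leaving out any other single library gave 0.0547 to 0.36. Without the 2 deepest libraries the difference was 1.65 with an adjusted p of 0.44.

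**Figure D2:**
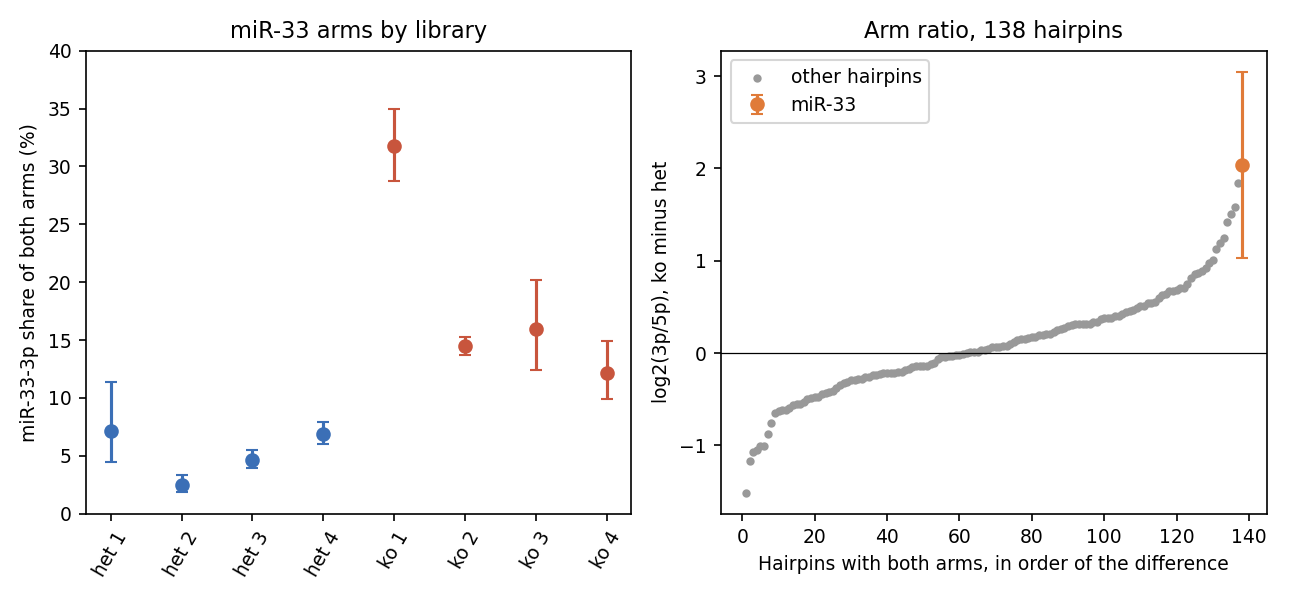
Left, share of miR-33-3p in the CPM of both arms in percent, 1 point a library with 95% Wilson intervals. Het libraries (blue) lie between 2.49% and 7.18% and ko libraries (red) between 12.2% and 31.8%. Right, difference of log2(3p/5p), ko minus het, for 138 hairpins in rank order, with the 95% interval for miR-33 (orange), which stands last at 2.04.

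The 5p arm began at a fixed base and varied at its 3 prime end. Reads that did not start at the annotated first base were 0.831 ± 0.755% (SD, n = 4) of miR-33-5p in het and 1.10 ± 0.657% (SD, n = 4) in ko (exact permutation p = 0.571). Reads were 18 to 23 nt long. The mean length was 20.5 ± 0.395 nt (SD, n = 4) in het and 20.7 ± 0.214 nt (SD, n = 4) in ko (exact permutation p = 0.514, adjusted 0.571). Neither difference exceeded the spread between mice.

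The most abundant form was the 20 nt read, a base shorter than the annotated strand. It held 50.8 ± 12.6% (SD, n = 8) of the arm. The annotated strand of 21 nt itself held 6.12 ± 3.51% (SD, n = 8), less than the 19 nt read with 8.97 ± 4.40% (SD, n = 8).

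The second form, of 22 nt, ended in an A where the hairpin has a U. It held 33.3%, 16.2%, 5.87% and 46.0% of the arm in het replicates 1 to 4 and 22.8%, 37.5%, 44.2% and 22.4% in ko replicates 1 to 4. Both the lowest and the highest library were het, and the groups overlapped throughout. Its levels were 133, 188, 58.6 and 427 CPM in het and 16.8, 128, 54.1 and 123 CPM in ko. Since the base before the added A is also an A, a 20 nt strand with 2 added A and a 21 nt strand with 1 cannot be told apart.

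All miR-33-5p reads with 1 to 3 added A held 29.5 ± 14.3% (SD, n = 8) of the arm. The same share was computed for the 233 of 278 miRNAs averaging 100 CPM or more that had a RefSeq hairpin to compare with, of which the median was 4.87% with a median SD of 1.61 percentage points. As a description, miR-33-5p had both the highest share and the highest SD of the 233. The share was 26.5 ± 17.5% (SD, n = 4) in het and 32.5 ± 11.9% (SD, n = 4) in ko. Over added bases of any kind, miR-33-5p stood at place 27.

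**Figure D3:**
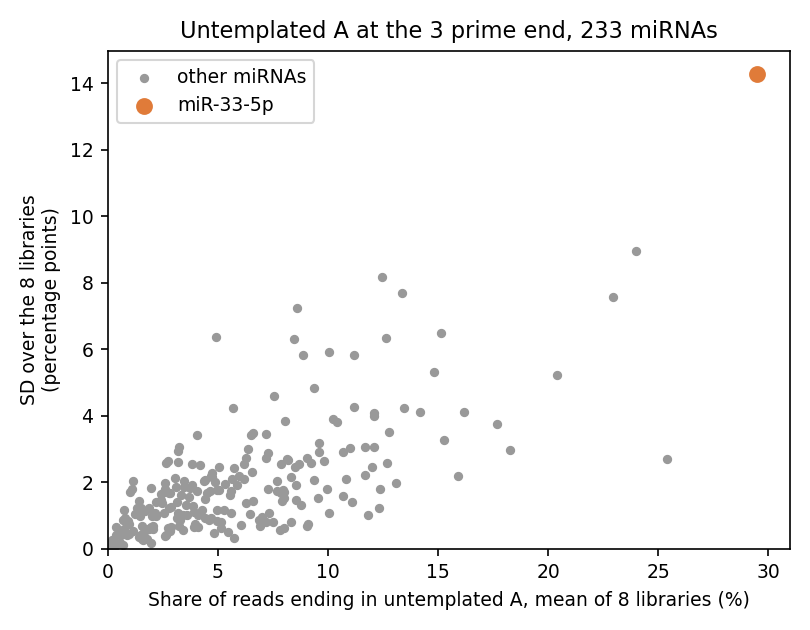
Share of reads with 1 to 3 untemplated A at the 3 prime end, mean of 8 libraries in percent (x axis), against its SD over the libraries in percentage points (y axis), for 233 miRNAs. miR-33-5p (orange) is at 29.5% and 14.3 points, apart from the other miRNAs (grey).

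Taken singly, the 4 abundant 5p reads had lower means in ko. The 20 nt read averaged 465 ± 238 CPM (SD, n = 4) in het and 145 ± 151 CPM (SD, n = 4) in ko, with a log2 difference of -2.08 and an adjusted p of 0.418 in limma over 3299 reads. For the 22 nt read with the added A the log2 difference was -1.34, for the 19 nt read -2.50 and for the 21 nt read -1.98. None of the 4 passed an adjusted p of 0.05 in limma, while 0.485% of all reads did. At an unadjusted p under 0.05, 3 of these 4 reads and 4.18% of all reads were lower in ko. The 4 reads are forms of 1 arm, of which all other reads held 5.57% on average. They thus repeat the result of the arm and are not separate evidence. Without ko replicate 4 the 20 nt read had a difference of -2.71 and an adjusted p of 0.0186 in limma. That library held the most of this read among the ko libraries. Leaving out any other single library gave the 20 nt read an adjusted p of 0.288 to 0.997 in limma.

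The 3p arm was also trimmed. The annotated strand of 22 nt was not listed, and the scarcest listed sequences have 8 reads over all libraries. The 21 nt read, a base shorter, held 50.3 ± 14.3% (SD, n = 8) of the arm, and the 22 nt read that ends in an added T held 21.0 ± 12.6% (SD, n = 8). The T read was at 1.93, 8.25, 7.38 and 6.01 CPM in het and 13.1, 10.4, 9.02 and 11.8 CPM in ko. Each ko value was above each het value, as for 1.50% of the reads that averaged 1 CPM or more. The lowest het value rests on 1 read, and the T read averaged less than 10 CPM and was not tested. The 21 nt read averaged 26.3 ± 12.1 CPM (SD, n = 4) in het and 23.3 ± 18.0 CPM (SD, n = 4) in ko.

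**Figure D4:**
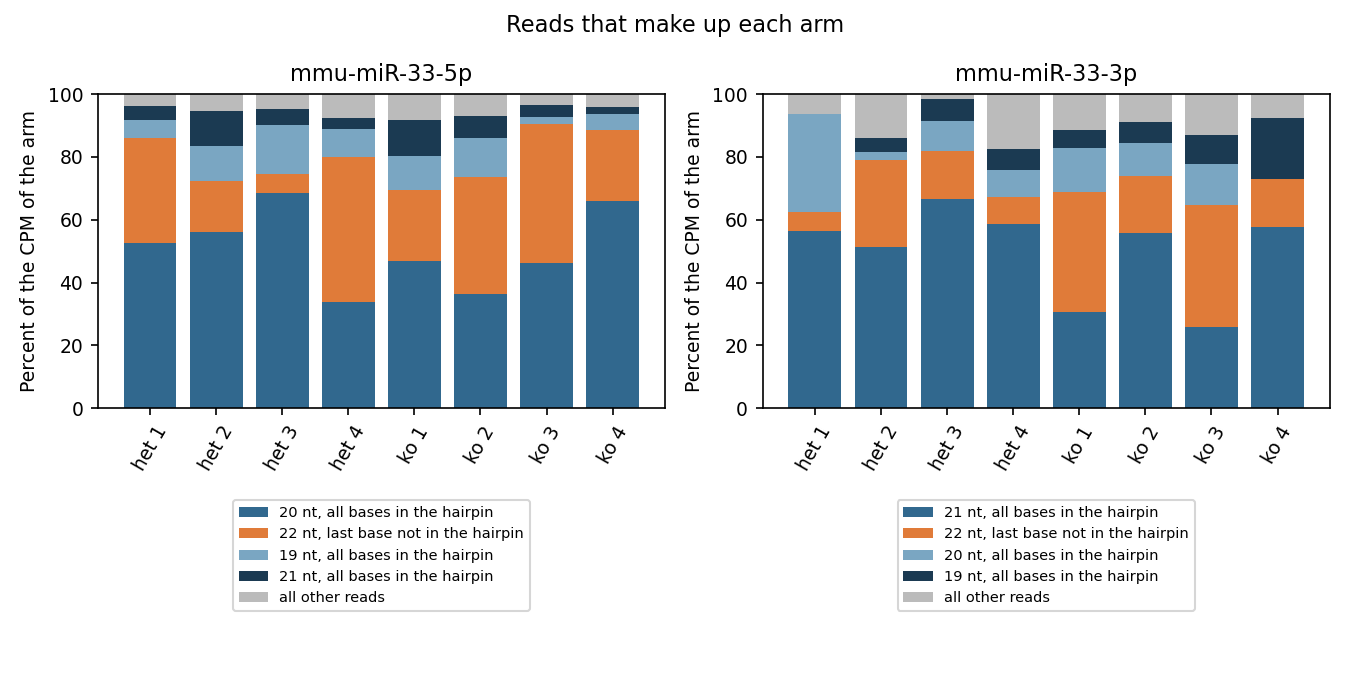
Percent of the CPM of each arm held by its 4 most abundant reads and by all others, 1 bar a library, with mmu-miR-33-5p left and mmu-miR-33-3p right. The 22 nt read with a last base not in the hairpin (orange) ranges from 5.87% to 46.0% of miR-33-5p.

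The arms carry different seeds. UGCAUU, the seed of 98.9% of miR-33-5p, has a viability score of 87.0, and AAUGUU, the seed of 95.5% of miR-33-3p, has a score of 51.0. Of all reads with UGCAUU, 99.6% were miR-33-5p, so that this seed followed the arm. Its log2 difference was -1.97 with an adjusted p of 0.392 in limma over 990 seeds, of which 0.303% passed 0.05. The seed AAUGUU was carried mainly by miR-409-3p (170 ± 47.6 CPM, SD, n = 8), a miRNA of an imprinted cluster, which held 79.1% of its reads against 20.5% for miR-33-3p. The log2 difference of that seed was 0.08 with an adjusted p of 0.996. The RefSeq sequence of miR-409-3p, at chr12:109743204-109743225 (plus strand), is shown with bases 2 to 8 in capitals because it shares the 6mer seed.
mmu-miR-409-3p: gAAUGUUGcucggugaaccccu

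Reads with a nontoxic seed, taken as a viability score over 80, held 9.27 ± 0.314% (SD, n = 4) of the table in het and 8.27 ± 0.687% (SD, n = 4) in ko. Of these, miR-33-5p made up 0.939 ± 0.342% (SD, n = 4) in het and 0.317 ± 0.236% (SD, n = 4) in ko. Without miR-33-5p the share of such reads was 9.18 ± 0.305% (SD, n = 4) in het and 8.24 ± 0.667% (SD, n = 4) in ko, close to the share with it.

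Among all miRNAs tested, miR-33-5p stood at place 138 by mean level, with 572 ± 412 CPM (SD, n = 8). Its neighbours were miR-434-5p (605 CPM) and miR-674-5p (582 CPM) above and miR-340-5p (555 CPM) and miR-154-3p (551 CPM) below. The coefficient of variation over the 8 libraries was 72.0%, against a median of 34.2% over all miRNAs, and 30 miRNAs varied more. That value includes the difference between genotypes, and within them it was 37.8% in het and 80.6% in ko. The 3p arm stood at place 343 with 46.2 ± 19.8 CPM (SD, n = 8), between miR-874-5p (46.4 CPM) and miR-325-5p (45.0 CPM), with miR-666-5p (47.9 CPM) and miR-323-5p (44.5 CPM) next to these. Since the neighbours were chosen by their place in mean level, their closeness to each arm is not a result.

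The miRNAs whose levels went most closely with each arm were sought over the 8 libraries after the genotype means were removed. For miR-33-5p these were miR-3106-5p (Pearson r = 0.92), miR-451a (r = 0.91) and miR-497a-3p (r = 0.85). Their means were 63.1, 1629 and 45.8 CPM in het and 21.3, 988 and 22.9 CPM in ko. For miR-33-3p they were miR-101b-3p (r = 0.91), miR-412-5p (r = 0.87) and miR-136-3p (r = 0.86). The arms went with each other at r = 0.70. These values are a description over 8 libraries, in each of which all miRNAs share 1 depth and 1 scaling, and each list is the top of 463 miRNAs.

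Most other miRNAs described as acting on sterol balance had small differences. Of 19 miRNAs known to repress Abca1, the LDL receptor, the HDL receptor or Srebf2, 18 were tested and 12 had a log2 difference below 0, beside 59.4% of all miRNAs. Of these 18, 1 passed an adjusted p of 0.05 in limma, beside 1.30% of all miRNAs, and the median log2 difference was -0.22. The one that passed was miR-96-5p, which fell by 4.29 on the log2 scale (adjusted p = 0.000463 in limma) from 239 ± 112 CPM (SD, n = 4) in het to 12.8 ± 11.1 CPM (SD, n = 4) in ko. It is best known from sensory epithelium, and the epithelial marker sum moved with it. The 4 most abundant of the list did not pass. Their log2 differences were 0.33 for miR-128-3p, 0.04 for miR-26a-5p, -0.39 for miR-27b-3p and -0.42 for miR-27a-3p.

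Of 11 miRNAs known to repress autophagy genes, all 11 were tested and 8 had a log2 difference below 0, beside the same 59.4% of all miRNAs. None passed the test, and none had an unadjusted p under 0.05 in limma, while 7.34% of all miRNAs did. The median log2 difference was -0.13, and the range was -0.37 to 0.15. The most abundant were miR-181a-5p (-0.13), miR-101a-3p (-0.07), miR-30d-5p (-0.24) and miR-30a-5p (-0.17). Medians of both lists lie near the -0.09 of all miRNAs.

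**Figure D5:**
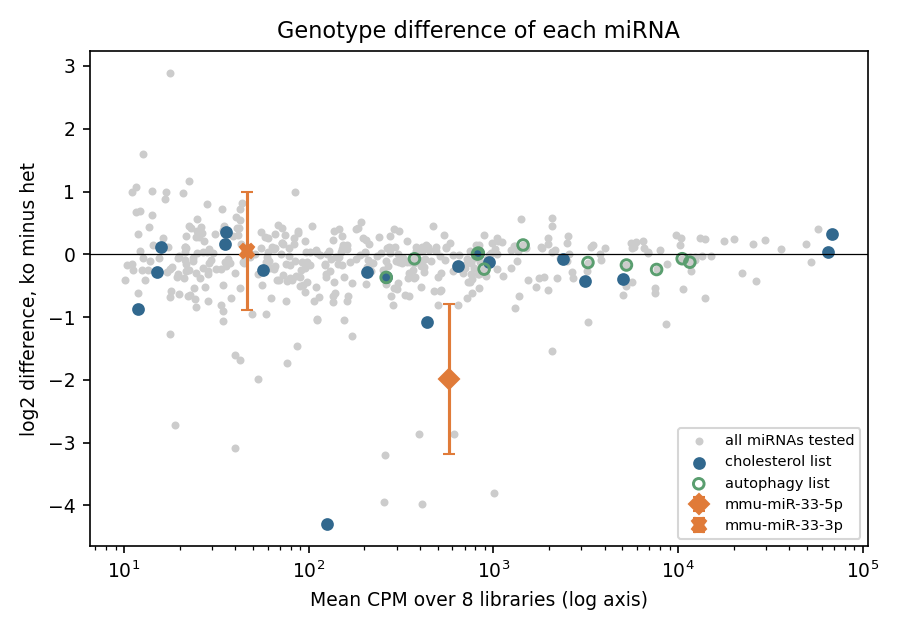
Difference of mean log2(CPM + 1), ko minus het, against mean CPM on a log axis for 463 miRNAs (grey), with the cholesterol list (blue) and the autophagy list (green rings). Both miR-33 arms are orange with 95% intervals, miR-33-5p at -1.99 and miR-33-3p at 0.05.

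Fragments of mRNA were counted for the host Srebf2 and for genes described as miR-33 targets. Of 18 such genes 3 had any sequence in the table: Srebf2 with 1, Npc1 (a lysosomal cholesterol transporter) with 2 and Crot (a carnitine acyltransferase) with 1. Together they averaged 1.53 CPM, near the level of a few reads, and no sequence of Abca1, of the sterol exporter Abcg1 or of the autophagy genes Atg5 and Atg12 was listed. Such fragments are no measure of the level of these mRNAs.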

How the data were processed

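The libraries were small RNAs from GW182 peptide pulldowns, gel-selected and sequenced on a HiSeq instrument. The authors' SPOROS pipeline turned reads, trimmed with Trim Galore per the labels, into a table of distinct sequences with the name of the matching RNA. The deposited values are CPM scaled by the authors to 1000000 reads a library. The deposited viability score of each seed came from an earlier screen by the authors. Aligner versions and the genome build are not given in the sources used here. With this scaling, a change in 1 abundant miRNA moves the values of the others. A total of 100% of values were whole multiples of 1 read (within 0.001 CPM), which gave the depth.

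CPM was summed by miRNA name, seed and sequence. Those that averaged 10 CPM or more were tested on log2(CPM + 1) with limma 3.58.1 (trend, robust; R 4.3.3), het and ko in one fit, adjusted by Benjamini-Hochberg over all features tested in that table. Shares were compared by exact two-sided permutation over 70 splits. On the recovered reads, edgeR 4.0.16 (TMM) and DESeq2 1.42.0 were alternatives. They called 4 and 9 miRNAs. Fits were tested on simulated data. Reads were compared with RefSeq hairpins, and up to 3 last bases that break the match were called untemplated. Python 3.11.15, numpy 2.4.6, scipy 1.17.1, pandas 2.3.3 and matplotlib 3.10.9 were used.

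The 2 arms, the lists and the tests were chosen with earlier results of these data known. The miRNAs named were both arms, their neighbours in level, carriers of their seeds, the 3 most correlated with each arm, and the 4 most abundant and any called of each list. The hairpins and miRNAs named in the closing section (miR-879, miR-501, miR-331, miR-383, miR-323-3p, miR-3099-3p and miR-1198-5p) fall outside this rule and were chosen after their values were seen. Each library is a different mouse per the labels.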

Additional observations from a re-analysis of the deposited data

How the results depend on the processing

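For miR-33-5p the log2 difference stayed negative under all 19 alternatives and ranged from -2.46 to -1.50. It passed an adjusted p of 0.05 under 2 of them, without ko replicate 4 and with the replicate block, and its adjusted p ranged from 0.00559 to 0.48. Leaving out 1 library at a time gave -2.46 to -1.50 for miR-33-5p, -2.43 to -1.49 for its seed and -2.71 to -1.59 for its 20 nt read. On recovered reads the difference was -1.52 with edgeR (adjusted p = 0.48) and -1.51 with DESeq2 (adjusted p = 0.148). For miR-33-3p the sign was not stable, with -0.22 to 0.34 over the same omissions (reversed to -0.09 without het replicate 1, -0.11 without het replicate 2, -0.09 without ko replicate 2 and -0.22 without ko replicate 4). The log2 ratio of the arms stayed positive in all 12 alternatives, all added after seeing the data, with 1.66 to 2.25 on leaving out 1 library, and the number of arm ratios called was 0 to 1 over those omissions and 2 with the replicate block. The 3p share differed by 8.88 to 15.4 percentage points without 1 library and by 8.74 without the 2 libraries over 5000000 reads. The small differences in 5 prime shifted reads (-0.00556 without het replicate 1, -0.0125 without ko replicate 4, up to 0.587) and in mean read length (-0.0168 nt without het replicate 3, up to 0.278) changed sign. The number of miRNAs called was 4 to 9 on leaving out 1 library. Removing each library's GC trend gave -1.82 for miR-33-5p and adding 7 hairpin sequences without a mature name gave -1.98, both chosen after seeing the data.

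Replicate numbers are shared by the genotypes but the mice differ, and the deviations of same-numbered libraries correlated at 0.04, 0.29, -0.18 and 0.25, so the numbers were not taken as pairs. With them as a replicate block, 10 miRNAs and 2 arm ratios were called. The values were -1.99 for miR-33-5p (adjusted p = 0.00559), -1.97 for its seed (adjusted p = 0.0392) and 2.04 for the arm ratio (adjusted p = 0.00675) in limma. Other results did not pass 0.05 with the block. The most abundant miR-33-5p read had a difference of -2.08 with an adjusted p of 0.0838 in limma. The 3p share differed by 13.3 percentage points (exact permutation p = 0.125, adjusted 0.375), against an adjusted p of 0.0857 without the block. Of the het libraries, 1 of 4 correlated best with its own number. The cause of these changes was not tested. The shallowest library held 207 reads of miR-33-5p and 16 of miR-33-3p, which limits its isoform shares.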

Other observations

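Of the 138 hairpins, 2 (1.45%) had every ko library above every het library in arm ratio, miR-33 and miR-879. Another 3 had every ko library below every het library, miR-501, miR-331 and miR-383. How many would separate with shuffled genotype labels was not tested. For miR-879 the log2 ratio of 3p to 5p was higher in ko by 1.84 (adjusted p = 0.283 in limma). For miR-501, miR-331 and miR-383 it differed by -1.51, -1.07 and -1.01, with adjusted p-values of 0.245, 0.378 and 0.378 in limma. None passed the test over 138 hairpins.

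After miR-33-5p, the highest shares of reads with an untemplated A were those of miR-323-3p (25.4%), miR-3099-3p (24.0%) and miR-1198-5p (23.0%). Their SDs over the 8 libraries were 2.70, 8.95 and 7.56 percentage points. The library range was 22.1% to 29.2% for miR-323-3p and 7.12% to 47.3% for miR-33-5p.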
